A study of Mus musculus with 18 samples.

Results

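The cluster of miR-183, miR-96 and miR-182 was followed through its members mmu-miR-183-5p, mmu-miR-183-3p, mmu-miR-96-5p and mmu-miR-182-5p, 4 of the 1907 mature miRNAs listed in the table. The members were selected by name, with their change in input after Pus1 knockdown and their enrichment by immunoprecipitation (IP) already known, so those values are described here without a test. The other arms of the same hairpins, miR-96-3p and miR-182-3p, bring the number of arms to 6. Small RNA was sequenced from NIH/3T3 cells, an established mouse embryonic fibroblast line, in 18 libraries. The 3 conditions were cells labelled Pus1 WT, Pus1 KD day3 (KD3) and Pus1 KD day6 (KD6), and each gave 3 input and 3 Ψ-IP libraries, lettered A to C. Ψ-IP is precipitation of small RNA with an antibody to pseudouridine (Ψ), so a high ratio of Ψ-IP to input describes RNA retained by the antibody. All groups share the cell line and the culture medium, and how the knockdown was made is not given in the sources used here. The labels do not say whether A, B and C were separate cultures, so the error between them may be technical. Pus1 mRNA is not measured by a miRNA table, and the knockdown was not checked. The labels give no day for the WT libraries and name no control of the same day. Knockdown and time in culture therefore cannot be told apart.

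Pseudouridine is an isomer of uridine made in place by pseudouridine synthases, and PUS1 is a synthase best known for modifying tRNA. The cluster is transcribed as 1 polycistronic precursor from which the hairpins are cut, and the 5p arm of each is the usual guide strand loaded into Argonaute. The family is best known from sensory organs such as the inner ear and retina, where it is abundant in hair cells and photoreceptors, and its members have related seeds, the bases that pair with target mRNAs. Mutations in the seed of miR-96 cause progressive hearing loss.

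The hairpins lie on the minus strand of mouse chromosome 6 (GRCm38, the build also named mm10). Mir183 is at chr6:30169668-30169737, Mir96 at chr6:30169446-30169551 and Mir182 at chr6:30165918-30165992. Mir183 and Mir96 are separated by 116 bases, Mir96 and Mir182 by 3453 bases, and the span of all 3 hairpins is 3820 bases. In the GENCODE annotation no other gene overlaps any of them, so each hairpin is the only exon of its own miRNA gene. The position in the deposited identifier of each of the 6 arms equalled the 5′ end of the RefSeq mature sequence.

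The mature sequences are shown because the members differ in their seeds and in their uridines, the base that can be converted to Ψ. They are from RefSeq (GRCm38.p6), written 5′ to 3′ with the seed, bases 2 to 8, in capitals.
miR-183-5p: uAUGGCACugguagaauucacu
miR-96-5p: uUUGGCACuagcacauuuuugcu
miR-182-5p: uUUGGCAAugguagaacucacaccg
miR-183-3p: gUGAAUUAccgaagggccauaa
Counted from 1 at the 5′ end of miR-96-5p, the first 8 bases of miR-183-5p differ by U2A and those of miR-182-5p by C8A. Over the whole strand, miR-183-5p and miR-182-5p are the closer pair, with 18 of 22 aligned positions identical, against 13 of 22 for miR-96-5p and miR-183-5p and 12 of 23 for miR-96-5p and miR-182-5p. All 3 guide strands begin with a uridine. miR-96-5p has 10 uridines, 5 of them in 1 run near its 3′ end, whereas miR-183-5p has 7, miR-182-5p has 6 and miR-183-3p has 4. No miRNA with a read in the table and a RefSeq sequence (1043 miRNAs) shared the 7-base seed of any of these guide strands.

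Levels below are in CPM, counts scaled to the reads of the miRNAs tested in each library and by TMM (trimmed mean of M values), or in RPM, reads scaled to all miRNA reads of a library without TMM. Sequencing gave between 3989031 and 15099781 mapped reads per library, except the KD6 input library A, which had 241109. In the inputs, 5.47 to 5.86% of mapped reads lay outside the miRNA rows in WT, 9.39 to 9.94% in KD3 and 6.88 to 9.96% in KD6. In the Ψ-IP these shares were 14.8 to 18.6%, 27.9 to 38.2% and 23.2 to 30.3%. Values scaled to all mapped reads take in this difference between conditions, and its cause was not tested. All 4 members passed the filter on low counts and were among the 537 miRNAs tested, and miR-96-3p and miR-182-3p did not pass it. The fibroblast label was checked against marker miRNAs: all 8 mesenchymal miRNAs listed passed the filter, with a summed level of 474190 to 627730 RPM in the inputs and 195800 to 268538 in the Ψ-IP. Of the epithelial list (the miR-200 family) 2 of 5 passed, with a summed level of 0 to 2.97 RPM in the inputs and 1.34 to 10.8 in the Ψ-IP, and miR-141-3p was at 0 in every input. The blood list, with 0 of 3 past the filter, was at 0 to 0.48 RPM in the inputs and 0 to 0.3 in the Ψ-IP with miR-142a-3p at 0 in every input, and the endothelial list, with 0 of 2 past it, at 0 to 2.76 and 0 to 1.35. The neuronal list, with 1 of 2 past the filter, was at 3015 to 3658 RPM in the inputs and 5494 to 8451 in the Ψ-IP, nearly all of it miR-9-5p, with miR-124-3p at 0 to 0.68 in the inputs. The muscle list, with 2 of 3 members past the filter and miR-133a-3p at 0 in every input, was at 85.6 to 305 RPM in the inputs and 269 to 525 in the Ψ-IP, and the liver marker miR-122-5p at 23.1 to 84.6 and 84 to 227. The part of these cell-type markers in the cluster's values was not tested.

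miR-183-5p and miR-182-5p were at nearly equal levels in the inputs, and miR-96-5p was far lower. In the WT inputs the guide strands ranked 62 (miR-183-5p), 61 (miR-182-5p) and 162 (miR-96-5p) of 537 by mean level. Of all reads from the cluster in WT inputs, miR-182-5p took 49.4% ± 0.98 (SD, n = 3), miR-183-5p 46.8% ± 0.41 and miR-96-5p 3.58% ± 0.54. The passenger arms were rare. Over the 9 inputs, 3p arms made up 0.231% of the reads of mir-183, 0.313% of mir-96 and 0.0779% of mir-182.

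**Figure D1:**
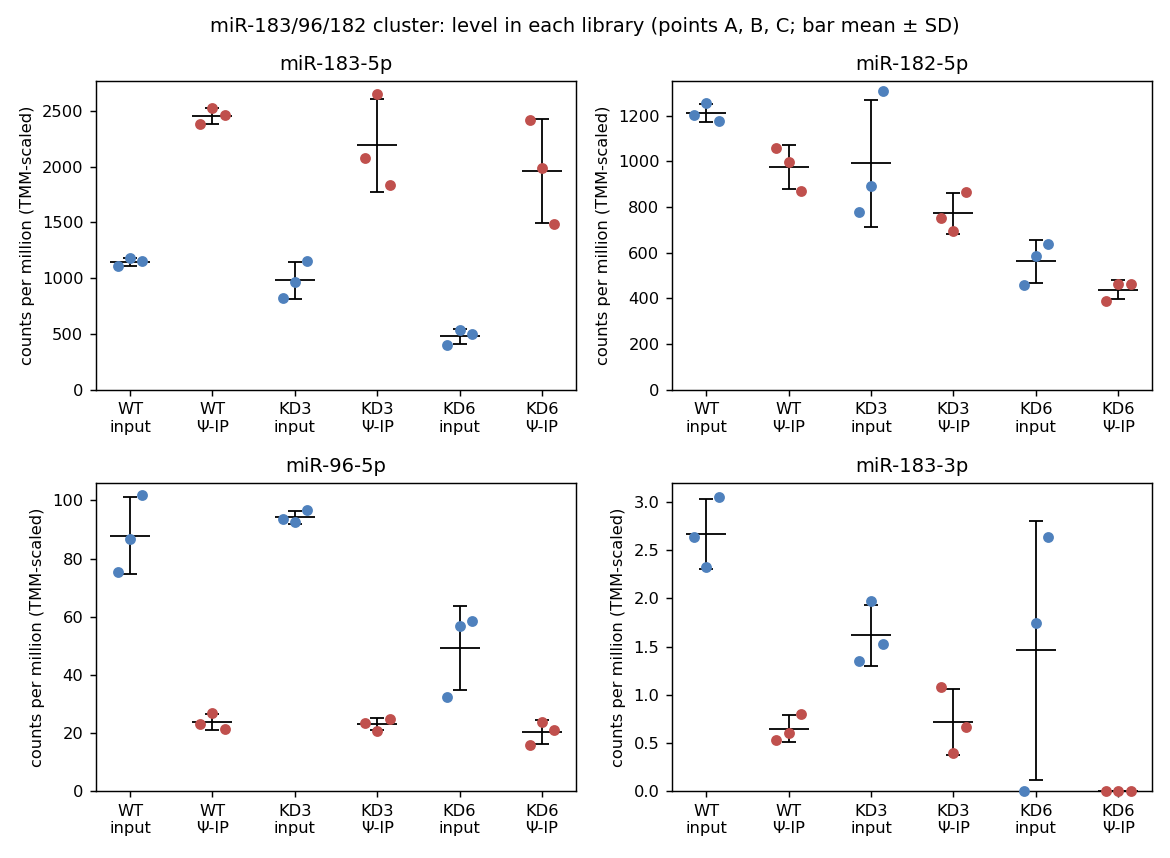
Level of each member (CPM, TMM-scaled, linear axis from 0) in the 18 libraries, with points for replicates A, B and C, and black bars for the mean ± SD of each group. Ψ-IP libraries (red) lie above the inputs (blue) for miR-183-5p and below them for miR-96-5p in all 3 conditions.

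The members of the cluster differed in the Ψ-IP. Relative to the input, miR-183-5p was higher, miR-96-5p and miR-183-3p were lower, and miR-182-5p was near the median of all miRNAs.

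miR-183-5p, the member with the highest Ψ-IP to input ratio, had levels of 1112, 1183 and 1150 CPM in the WT inputs and 2379, 2525 and 2466 in the WT Ψ-IP. In KD3 cells its inputs were at 827, 962 and 1151 and its Ψ-IP libraries at 2079, 2656 and 1839. In KD6 cells its inputs were at 402, 534 and 497 and its Ψ-IP libraries at 2418, 1992 and 1486. Every Ψ-IP library was above every input, within each condition and across conditions. The log2 ratio of Ψ-IP to input was 1.10 ± 0.20 (SE) in WT, 1.16 ± 0.20 in KD3 and 2.03 ± 0.21 in KD6. The medians of all 537 miRNAs in these comparisons were −0.29, −0.26 and −0.21, so relative to the median miRNA the log2 ratio was 1.39, 1.42 and 2.24. The log2 ratio itself was 1.78 in WT with the shallow KD6 input A as TMM reference, 1.84 in KD3 without the KD3 input C and 1.15 in KD6 when scaled to all mapped reads, while the values relative to the median lay between 1.16 and 2.44 in every setting.

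miR-96-5p, the member that has 10 uridines, had lower levels in the Ψ-IP. It was 75.3, 86.6 and 101.7 CPM in the WT inputs and 23.1, 27 and 21.4 in the WT Ψ-IP. In KD3 it was 93.5, 92.5 and 96.7 in the inputs and 23.4, 20.9 and 25 in the Ψ-IP. In KD6 it was 32.5, 56.9 and 58.4 in the inputs and 15.8, 23.9 and 21.1 in the Ψ-IP. All 9 Ψ-IP libraries were below all 9 inputs. The log2 ratio was −1.88 ± 0.23 in WT, −2.02 ± 0.23 in KD3 and −1.38 ± 0.24 in KD6. It was −1.20 in WT with the shallow library as TMM reference, −0.86 and −0.83 in KD6 without the KD6 input B or C and −2.22 in KD6 when scaled to all mapped reads, and −1.07 to −1.99 relative to the median in every setting.

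miR-182-5p had log2 ratios of −0.32 ± 0.20 in WT, −0.36 ± 0.20 in KD3 and −0.37 ± 0.20 in KD6, within 0.16 of the median of all miRNAs in each condition. Its level was 1203, 1256 and 1176 CPM in the WT inputs and 1058, 996 and 868 in the WT Ψ-IP. The KD3 inputs were at 777, 893 and 1305 and the KD3 Ψ-IP libraries at 753, 695 and 867, and these groups overlapped. The KD6 inputs were at 459, 587 and 639 and the Ψ-IP libraries at 390, 461 and 463, which overlapped as well. The sign and size of its ratio depended on the setting. Over the settings the WT log2 ratio ran from −0.42 to 0.36, that of KD3 from −0.67 to 0.46 and that of KD6 from −1.22 to 0.08. The highest WT value came with the shallow KD6 input A as TMM reference, the highest KD3 value without the KD3 input C, and the lowest KD3 and KD6 values when scaled to all mapped reads. In KD6 it was −0.89 without the Ψ-IP C, −0.78 without the Ψ-IP B, −0.67 without the Ψ-IP A, −0.73 without the input A, 0.02 without the input B and 0.08 without the input C. Relative to the median miRNA the WT value ran from −0.25 to 0.01, that of KD3 from −0.32 to 0.02 and that of KD6 from −0.59 to −0.05.

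miR-183-3p, the passenger strand opposite miR-183-5p, rested on few reads. It had 22, 24 and 29 reads in the WT inputs against 2, 3 and 5 in the WT Ψ-IP, and 16, 20 and 10 in the KD3 inputs against 3, 1 and 4 in the KD3 Ψ-IP. The KD6 inputs held 0, 10 and 25 reads, the 0 being in the shallow library A, and the KD6 Ψ-IP libraries held none. The log2 ratio was −1.98 ± 0.53 in WT and −1.15 ± 0.58 in KD3. Over the settings it lay between −2.14 and −1.32 in WT, the latter with the shallow KD6 input A as TMM reference, and between −1.62 (without the Ψ-IP A) and −0.62 (without the input C) in KD3. For KD6, the 3 pooled libraries of each group held 35 reads in the inputs (2.44 RPM) and 0 in the Ψ-IP. A count of 0 was taken to allow up to 3 reads over the group (0.223 RPM), which is 10.9-fold below the input level. The input level was taken as counted and without TMM, so 10.9-fold is not a lower bound. It passed the filter on low counts through its inputs, and it did not pass with only the KD3 or only the KD6 libraries in the fit. miR-182-3p had 55 reads over the 9 inputs and 1 over the 9 Ψ-IP libraries, and miR-96-3p had 19 and 6. The limit of 3 reads covers the counting error of the Ψ-IP count only.

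Read against all miRNAs, these separations were common. Among the 537 miRNAs the Ψ-IP and input groups did not overlap for 74.1% in WT, 74.1% in KD3 and 59% in KD6. Non-overlapping members numbered 4 of 4, 3 of 4 and 2 of 4, which is given as a description since the choice of members used these contrasts. miR-183-5p stood at percentile 76 of all log2 ratios in WT, 75.4 in KD3 and 82.5 in KD6, and miR-96-5p at percentile 29.6, 26.6 and 34.6.

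**Figure D2:**
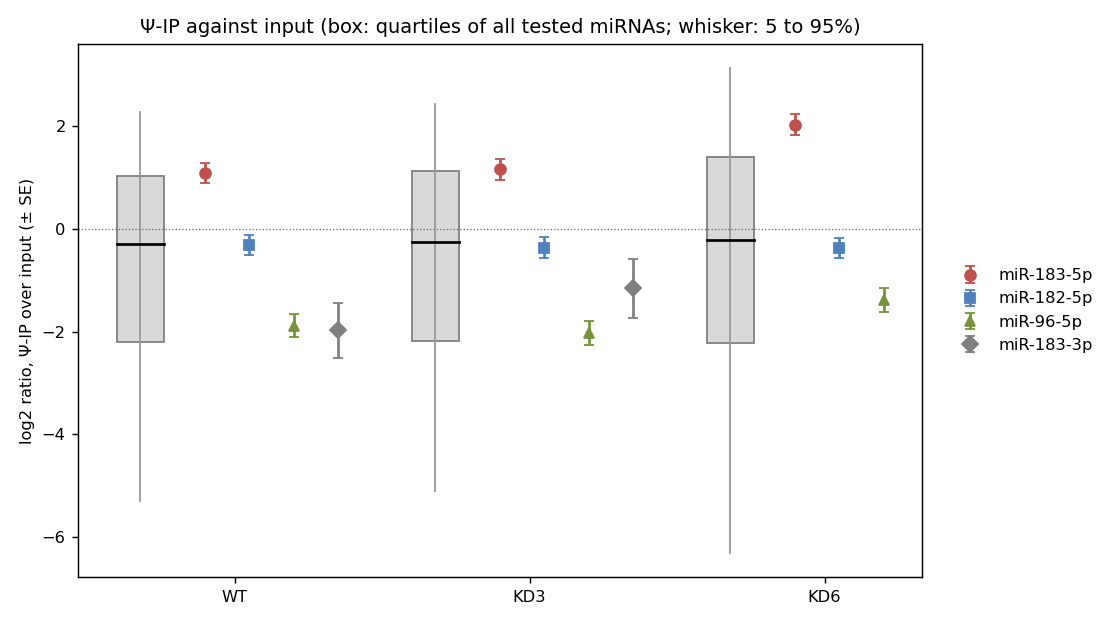
Log2 ratio of Ψ-IP to input for each member (points, ± SE) in WT, KD3 and KD6, beside the quartiles (box), median (line) and 5 to 95% range (whisker) of all 537 miRNAs tested. miR-183-5p lies at 1.10, 1.16 and 2.03, miR-182-5p near the median and miR-96-5p at −1.88, −2.02 and −1.38. miR-183-3p in KD6 has no read in the Ψ-IP and is not drawn.

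Tested miRNAs were grouped by their number of uridines as a description. In WT the 20 tested miRNAs with 10 uridines, as miR-96-5p has, had a median log2 ratio of 0.39 with quartiles at −0.76 and 1.20, and miR-96-5p lay below the lower quartile. The 76 miRNAs with 7 uridines had a median of 0.15 (quartiles −2.11 and 1.26), and miR-183-5p lay within these quartiles. The 83 with 6 uridines had a median of −1.23 (quartiles −3.24 and 0.62) and also held their member, miR-182-5p, between the quartiles. The 44 with 4 uridines had a median of −1.31 (quartiles −2.46 and 1.26), with miR-183-3p between the quartiles. The medians for 4 and 6 uridines were close, those for 7 and 10 were higher, and the quartile ranges of the 4 groups overlapped. Other numbers of uridines were not examined, so no trend is read from these medians. Of the 4 members miR-96-5p alone lay outside the quartiles of its group. These groups were made from the 465 of 537 tested miRNAs matched to a RefSeq sequence by name. In a library the miRNAs share the antibody and the adapter ligation, and base composition beyond the number of uridines was not matched.

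Ratios between members of 1 library do not depend on how libraries are scaled. The log2 ratio of miR-183-5p to miR-182-5p reads was −0.11, −0.09 and −0.03 in the WT inputs and 1.17, 1.34 and 1.51 in the WT Ψ-IP. It was 0.09, 0.11 and −0.18 in the KD3 inputs and 1.47, 1.94 and 1.08 in the KD3 Ψ-IP. In KD6 it was −0.19, −0.14 and −0.36 in the inputs and 2.63, 2.11 and 1.68 in the Ψ-IP. No Ψ-IP library overlapped an input, and the KD6 Ψ-IP libraries lay above all 3 WT Ψ-IP libraries but overlapped those of KD3. Averaged over libraries, the ratio of miR-183-5p to miR-182-5p was 2.67-fold higher in the Ψ-IP than in the input in WT, 2.81-fold in KD3 and 5.18-fold in KD6.

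The ratio of miR-183-5p to miR-96-5p differed more. Its log2 value went from 3.72 ± 0.20 (SD, n = 3) in the input to 6.69 ± 0.15 in the Ψ-IP of WT, from 3.37 ± 0.21 to 6.56 ± 0.40 in KD3 and from 3.32 ± 0.28 to 6.59 ± 0.59 in KD6. That is a 7.87-fold, 9.12-fold and 9.68-fold higher ratio in the Ψ-IP. For miR-182-5p over miR-96-5p the log2 ratio went from 3.80 ± 0.24 to 5.36 ± 0.16 in WT, from 3.36 ± 0.36 to 5.06 ± 0.06 in KD3 and from 3.55 ± 0.24 to 4.45 ± 0.18 in KD6. In the Ψ-IP this pair did not overlap between conditions, at 5.21 to 5.52 in WT, 5.01 to 5.12 in KD3 and 4.27 to 4.62 in KD6. Its inputs overlapped, and miR-183-5p over miR-96-5p overlapped between all conditions in the Ψ-IP. miR-96-5p had 87 to 133 reads per library in the WT Ψ-IP, 52 to 149 in KD3 and 43 to 111 in KD6. How many other miRNA pairs do not overlap was not counted, so nothing is read from the separations of these ratios. miR-183-5p took 71.1% ± 2.4 of the cluster's reads in the WT Ψ-IP, 73% ± 5.7 in KD3 and 80.5% ± 5.1 in KD6, against 46.8%, 47.7% and 43.9% in the inputs.

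**Figure D3:**
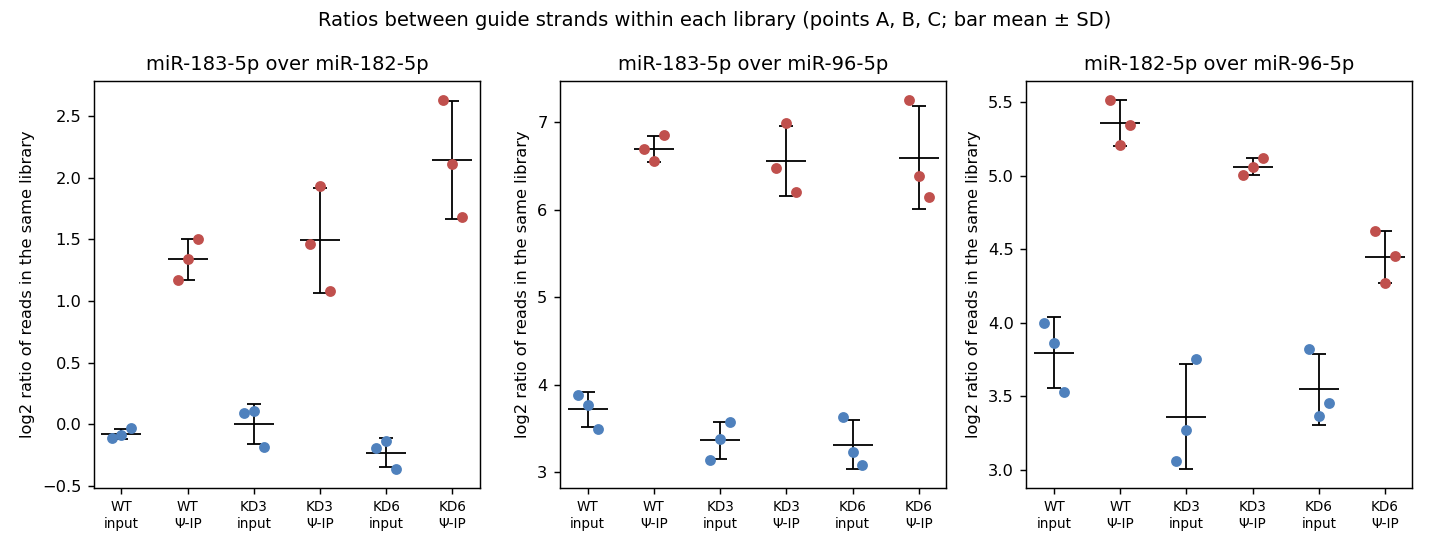
Log2 ratio of reads between guide strands of the same library, one panel per pair, with points for replicates A, B and C and bars for the mean ± SD. In all 3 panels every Ψ-IP library (red) is above every input (blue) of its condition, and miR-182-5p over miR-96-5p in the Ψ-IP has a mean of 5.36 in WT and 4.45 in KD6.

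In the inputs, which hold the small RNA before precipitation, the guide strands were lower in KD6 than in WT. Whether this goes with the knockdown or with time in culture cannot be told apart. Over all 6 arms the cluster made up 2148 ± 55.9 RPM (SD, n = 3) in WT, 1767 ± 343 in KD3 and 1169 ± 190 in KD6. The log2 ratio of KD6 to WT was −1.25 ± 0.20 (SE) for miR-183-5p, −1.10 ± 0.20 for miR-182-5p and −0.73 ± 0.23 for miR-96-5p, against a median of −0.22 over all miRNAs. miR-183-3p had −0.33 ± 0.48. Every KD6 input was below every WT input for the 3 guide strands, and miR-183-3p overlapped. The groups did not overlap for 27.6% of all miRNAs tested, and nothing is read from this for members chosen with their input change known. Over the main and 16 alternative settings the log2 ratio ran from −1.31 to −0.93 for miR-183-5p, −1.16 to −0.77 for miR-182-5p and −0.78 to −0.39 for miR-96-5p. Relative to the median miRNA, miR-183-5p lay between −1.10 and −0.90, miR-182-5p between −0.94 and −0.72 and miR-96-5p between −0.60 and −0.41. The KD6 input A held 8 reads of miR-96-5p.

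At day 3 the inputs differed less from WT. The log2 ratio was −0.23 ± 0.20 for miR-183-5p, −0.29 ± 0.20 for miR-182-5p, 0.10 ± 0.22 for miR-96-5p and −0.72 ± 0.44 for miR-183-3p, around a median of −0.10 over all miRNAs. Only miR-183-3p had KD3 inputs that did not overlap the WT inputs, as did 33.3% of all miRNAs. KD6 against KD3 gave −1.03 ± 0.20 for miR-183-5p, −0.81 ± 0.20 for miR-182-5p, −0.83 ± 0.23 for miR-96-5p and 0.38 ± 0.49 for miR-183-3p. The groups did not overlap for the 3 guide strands, as for 25% of all miRNAs. Without the KD3 input C the log2 ratio was −0.66 for miR-183-5p and −0.33 for miR-182-5p, and without the KD6 input B it was −0.52 for miR-182-5p. Scaled to all mapped reads it was −0.51 for miR-96-5p and −0.47 for miR-182-5p. In a bulk culture, fewer cells making these miRNAs and fewer copies per cell cannot be told apart.

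**Figure D4:**
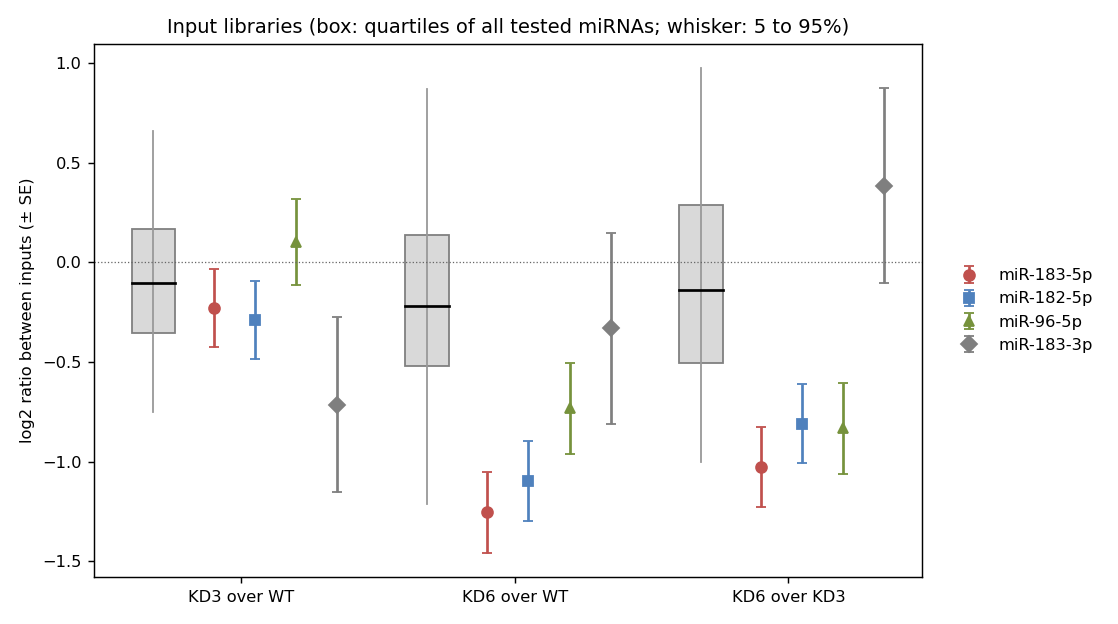
Log2 ratio between input libraries for each member (points, ± SE), beside the quartiles (box), median (line) and 5 to 95% range (whisker) of all 537 miRNAs tested. In KD6 over WT, miR-183-5p (−1.25), miR-182-5p (−1.10) and miR-96-5p (−0.73) lie below the lower quartile. In KD3 over WT all guide strands lie within the box.

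The change in Ψ-IP enrichment with knockdown was tested as an interaction, the ratio of Ψ-IP to input in knockdown against that in WT. The choice of members did not name this difference, but it is built from the enrichments and input changes that the choice did name. For the members its p-values are therefore given as a description. For miR-183-5p the mean input was 1148 CPM in WT and 478 in KD6, and the mean Ψ-IP 2457 and 1966. At day 6 the log2 change was 0.93 ± 0.28 for miR-183-5p (95% interval 0.35 to 1.52), of which 0.71 remained relative to the median miRNA. It did not pass the threshold in the edgeR test (adjusted p = 0.12 over 537 miRNAs, and 0.0284 to 0.869 over the alternatives). DESeq2 gave 0.89 with the adjusted p of 0.0284, and scaling to total mapped reads gave 0.11. Without the KD6 Ψ-IP A it was 0.38. For miR-96-5p the change was 0.50 ± 0.33 (interval −0.18 to 1.18, edgeR adjusted p = 0.423), with −0.28 to 0.54 over the alternatives. For miR-182-5p it was −0.06 ± 0.28 (interval −0.64 to 0.53, edgeR adjusted p = 0.942, and 0.0717 to 0.9998 over the alternatives). The value for miR-182-5p was −0.86 when scaled to all mapped reads, −0.69 with the library sizes unscaled and −0.29 to −0.54 without 1 library, and −0.23 to −0.47 relative to the median miRNA over the settings. miR-183-3p had no read in the KD6 Ψ-IP and passed the filter on low counts through its inputs. Its edgeR adjusted p of 0.13 fell to 0.0409, under the threshold, when scaled to all mapped reads. Neither value is read as a test of miR-183-3p, and its fitted change is no bound. At day 3 the log2 changes were 0.06 ± 0.28 for miR-183-5p, −0.14 ± 0.32 for miR-96-5p, −0.05 ± 0.28 for miR-182-5p and 0.82 ± 0.82 for miR-183-3p, all with an edgeR adjusted p of 0.9997. No miRNA passed in either interaction in the edgeR test (0% and 0%), with 15 at day 3 and 101 at day 6 at an unadjusted p under 0.05, whereas DESeq2 called 0 and 36.

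Reads of a miRNA can be many copies of few sequences. miR-183-5p in WT rested on 264 to 302 distinct read sequences per input library and 215 to 285 per Ψ-IP library, miR-182-5p on 287 to 323 and 146 to 195, and miR-96-5p on 26 to 41 and 7 to 17. Reads per distinct sequence were higher in the WT Ψ-IP than in the input for miR-183-5p, at 41.7 to 53.8 against 35.2 to 40.5, and lower for miR-182-5p, at 25.2 to 28 against 34.7 to 41.3. For miR-183-5p they overlapped in KD3, at 35.8 to 41.3 against 34.5 to 39. For miR-182-5p they overlapped in KD6, at 18.6 to 23.8 against 5.4 to 27.9. The numbers of reads were not matched between libraries. In the shallow KD6 input A the guide strands rested on 12, 21 and 2 distinct sequences for miR-183-5p, miR-182-5p and miR-96-5p.

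The miRNAs with the pattern most like each guide strand were found by the root mean square (RMS) difference between centred group means of log2 CPM over the 6 groups, among abundant miRNAs. For miR-183-5p these were miR-320-3p (RMS difference 0.20), miR-423-5p (0.23) and miR-671-3p (0.31). Their log2 ratios of Ψ-IP to input were 1.26, 1.60 and 0.90 in WT and 1.94, 2.27 and 1.75 in KD6, and their input ratios of KD6 to WT were −0.67, −1.16 and −0.57. For miR-96-5p they were miR-24-3p (0.20), miR-103-3p (0.21) and miR-598-3p (0.24). Theirs were −2.01, −2.12 and −1.93 in WT and −1.87, −1.84 and −1.29 in KD6, and −0.49, −0.53 and −0.41 between inputs. For miR-182-5p they were miR-484 (0.21), miR-151-5p (0.21) and miR-34b-3p (0.23), with Ψ-IP ratios of −0.62, −0.26 and 0.12 in WT and −0.93, −1.86 and −0.40 in KD6, and input ratios of −0.40, 0.52 and −0.47. The fitted values of miR-151-5p differed from those of miR-182-5p in KD6 despite the small RMS difference. Its KD6 inputs were spread widely, at 16.2, 111 and 550 CPM, and the RMS difference uses only the mean of their logs. Among the cluster's own members, miR-182-5p was in place 48 of 151 for likeness to miR-96-5p (RMS difference 0.74) and in place 79 of 150 for miR-183-5p (0.92). For likeness to miR-96-5p, miR-183-5p was in place 113 of 151 (1.57). The nearest patterns were picked for their small differences, so the sizes are not compared with theirs. These places use the group means with which the members were chosen and are a description.

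Of 10 companion miRNAs known beside the cluster in epithelia, neurons or sensory tissue, 4 passed the filter, namely miR-9-5p (a neural miRNA), miR-184-3p (an eye miRNA), miR-200b-3p and miR-200c-3p (epithelial miRNAs). In the Ψ-IP against input, 2 of the 4 rose in WT, 2 in KD3 and 3 in KD6 at an edgeR adjusted p under 0.05, and none of the 4 fell. These counts are a description, since the list was chosen with earlier results of these data known. They leave out the companions below the filter, so nothing is read from the lack of falls. Summed over all inputs and over all Ψ-IP libraries, miR-200a-3p had 21 and 0 reads, miR-124-3p 16 and 0 and miR-204-5p 9 and 2. For miR-429-3p these were 7 and 0, for miR-141-3p 0 and 12 and for miR-211-5p 0 and 6. Over all 537 miRNAs 67%, 66.1% and 69.3% had an edgeR adjusted p under 0.05, and 145, 146 and 171 of them rose. Of those called, 40.3%, 41.1% and 46% rose, against 57.9%, 54.5% and 54.2% with the shallow library as TMM reference, and 27.6% in KD6 when scaled to all mapped reads. miR-9-5p had log2 ratios of 0.84 ± 0.15 in WT, 1.22 ± 0.16 in KD3 and 1.39 ± 0.16 in KD6. miR-184-3p had 1.67 ± 0.25, 1.85 ± 0.25 and 2.42 ± 0.27. miR-200c-3p was called only in KD6 (3.45 ± 0.79), with inputs at 0 to 1.38 RPM, and the inputs of miR-200b-3p were at 0 to 1.55. Both passed the filter on low counts only through their Ψ-IP libraries, so nothing is read from the rise of miR-200c-3p. None of the 4 passed the test between inputs in KD3 against WT, KD6 against WT or KD6 against KD3, where 0%, 4.84% and 6.15% of all miRNAs passed. For KD3 against WT, 38 miRNAs had an unadjusted p under 0.05 and DESeq2 called 13. At day 6 against WT the inputs of miR-9-5p had −0.27 ± 0.15 and those of miR-184-3p 0.20 ± 0.27 on the log2 scale. The medians of the 4 were not compared with the cluster by a test.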

How the data were processed

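The members and lists were chosen with earlier results of these data known. The authors trimmed the reads and counted them per miRNA locus with the SeqImp pipeline (mm10, Ensembl 89, miRBase 21). The deposited values are estimated counts, mapped reads divided among loci (47% of non-zero values are not whole) and here rounded, and distinct sequences per miRNA; the deposited table has no column without a sample (0). For a miRNA with several loci the row with most reads was used. In R 4.3.3, edgeR 4.0.16 fitted a quasi-likelihood model with 6 group means to all 18 libraries, with TMM factors, filterByExpr and library sizes from the kept rows, and the Benjamini-Hochberg threshold was 0.05. The TMM reference was WT Ψ-IP A. Taking library sizes from all rows makes the shallow KD6 input A the reference, so other references were added as alternatives after the data were seen. DESeq2 1.42.0 was an alternative, and the others were median-ratio factors, library size alone, total mapped reads, summed loci, no filter, a replicate block, only the compared libraries and leaving out each library. Letters paired the inputs: over 197 abundant miRNAs the same-letter deviations correlated at 0.22 to 0.59 for KD3 against WT and 0.24 to 0.32 for KD6 against KD3, and not above 0.1 in every pair elsewhere.
The named miRNAs were the members and other arms of the hairpins, the 3 nearest patterns per guide strand among miRNAs averaging at least 100 CPM, tested companions and any sharing a seed.
Sequences were read from RefSeq tables, and promoters were not used.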

Additional observations from a re-analysis of the deposited data

How the results depend on the processing

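Each alternative was compared with the main fit for the counts of miRNAs called, for the member ratios and for the within-library ratios. Between inputs, where the main fit called 0 (KD3 against WT), 26 (KD6 against WT) and 33 (KD6 against KD3), the counts were, in that order where they moved by over 1.5 times: 17 for KD6 against WT with median-ratio factors; 1, 13 and 11 with the library sizes unscaled; 14 and 11 for the KD6 comparisons when scaled to all mapped reads; 2, 17 and 19 with no filter; 78, 14 and 9 with only the compared libraries; 1, 16 and 14 with WT input A as TMM reference; and, with KD6 input A as the reference, 1 for KD3 against WT and 11 for KD6 against KD3. DESeq2 called 13 for KD3 against WT. The replicate block, which the pairing of the letters allows for KD3 against WT and KD6 against KD3, gave 1 and 33. For the change in enrichment at day 6, where the main fit called 0, scaling to all mapped reads gave 51, DESeq2 36 and no filter 5. Leaving out 1 library at a time gave 1 to 26 calls for KD6 against WT, 3 to 41 for KD6 against KD3, and 0 to 37 for the change in enrichment at day 6, where the 37 came without KD6 Ψ-IP C and 6 without KD6 input A. KD6 against WT fell to 4, 6 and 5 without WT input A, B or C, and to 6 and 1 without KD6 input B or C. KD6 against KD3 fell to 4, 3 and 5 without KD3 input A, B or C, and to 3 and 5 without KD6 input B or C. The cause was not tested.

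Small changes in enrichment turned sign. For miR-183-5p at day 3 (0.06) the value was −0.19 when scaled to all mapped reads, −0.11 with no filter, −0.15 with KD6 input A as reference and −0.21 to 0.066 without 1 library. For miR-182-5p at day 3 (−0.05) it was 0.013 with summed loci and −0.34 to 0.090 without 1 library, and for miR-96-5p at day 6 (0.50) −0.12 with the library sizes unscaled and −0.28 when scaled to all mapped reads. The cause was not tested. The median of all miRNAs for Ψ-IP against input moved with the scaling, from −0.36 to 0.39 in WT, −0.59 to 0.21 in KD3 and −1.14 to 0.26 in KD6. The Ψ-IP to input ratio of miR-183-5p stayed positive (1.01 to 1.78 in WT, 0.85 to 1.84 in KD3, 1.15 to 2.46 in KD6) and that of miR-96-5p negative (−2.04 to −1.20, −2.34 to −1.44 and −2.22 to −0.83) under all alternatives. The KD6 input A, with 241109 reads, and the few reads of miR-183-3p limit precision at day 6.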
